A study of Mus musculus with 15 samples.

Results

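The genes described here are Trp53, which encodes p53, and 8 genes of its circuit: Mdm2, Mdm4, Ccng1, Trp53inp1, Phlda3, Zmat3, Sesn1 and Aen. They were picked by name, with earlier results of these data known, and make up 9 of the 45232 gene IDs in the count table. All 9 passed the filter on low counts, which left 17834 genes to test. Phlda3 reached the filter's level in 12 of the 15 libraries, and each of the others did so in all 15.

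p53 is a transcription factor that is held low in unstressed cells by the ubiquitin ligase Mdm2 and its partner Mdm4. DNA damage, oncogene activity or disturbed ribosome assembly release it, and it then raises genes for cell cycle arrest, repair, metabolic restraint and cell death, Mdm2 among them, so that the circuit limits itself. Most of this control acts on the p53 protein, which RNA counts do not show. In blood stem cells p53 is known for keeping cells quiescent and for removing damaged ones.

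RNA was sequenced from CD45.2+ LSK cells, the Lin- Sca-1+ Kit+ fraction of mouse marrow, rich in stem cells and multipotent progenitors, on a C57BL/6 background. The 5 groups had 3 libraries each. In 4 of them the donor cells carried Jak2 V617F, an activating kinase mutation of myeloproliferative neoplasms, with Idh2 R140Q, which makes the enzyme produce 2-hydroxyglutarate, and had been transplanted with competitor marrow into lethally irradiated CD45.1 hosts. Both alleles were under inducible Mx1-Cre, which acts in blood cells and beyond. These recipients were given vehicle, AG221 (enasidenib, an inhibitor of mutant IDH2) at 40 mg per kg, ruxolitinib (an inhibitor of JAK1 and JAK2) at 60 mg per kg, or both drugs, called combined below, by gavage for 21 to 28 days with a final dose about 1.5 hours before sacrifice. The fifth group is labelled wild type (WT), and whether these cells had been transplanted is not stated in the labels. Mice of both sexes and a range of ages were used in the study, and the age of each library's mouse is not given. Nothing says whether each library is 1 mouse, so the p-values measure only the spread between libraries.

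The libraries held 18836625 to 32174287 counts. Kit and Cd34, which mark LSK cells, were abundant in every library, while Ly6a, the gene of Sca-1, ran from 13.1 to 166 CPM (counts scaled to library size, per 1000000). The WT libraries had 29782 to 34487 genes with a count against 21369 to 26329 in the other groups, Xist at 455 to 511 CPM against 0.365 to 19.5, and the Y-linked Ddx3y at 0 to 0.101 CPM against 124 to 206. Genotype, sex and the larger number of detected genes therefore cannot be told apart in any comparison with WT. The replicate names begin with A for vehicle, AG221 and ruxolitinib and with B for combined and WT, and what the letters mean is not stated. In a comparison of an A group with a B group, the letter cannot be told apart from genotype or treatment. This holds for vehicle, AG221 and ruxolitinib against WT, and for combined against each of these groups.

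p53 binds pairs of a 10-base motif. RefSeq promoter windows (GRCm38.p6), running from 250 bases before to 50 bases after a gene's start, were held for 7 of the 9 genes, and 5 of these genes had an exact match in at least 1 window, beside 9.55% of all 27025 genes with a window. Counted by window, 6 of 10 held a match, beside 8.36% of all 32851 windows. The windows of Aen overlap and hold the same site, which is counted once for each of them. The motif is its own reverse complement, so a match stands on both strands. The matches follow with 10 bases on either side, 5′ to 3′ on the gene's strand and the motif in capitals, together with the 1 in Cdkn1a that adjoins a second, imperfect copy, because Cdkn1a (p21) is the best-known p53 target and is described further on. They lie at chr11:69580274-69580303 on the plus strand for Trp53, chr10:117710925-117710954 on the minus strand for Mdm2, chr11:40755452-40755481 on the minus strand for Ccng1, chr10:41887256-41887285 on the plus strand for a downstream start of Sesn1, chr7:78895927-78895956 on the plus strand for Aen and chr17:29090918-29090947 on the plus strand for Cdkn1a.
Trp53: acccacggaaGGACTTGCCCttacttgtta
Mdm2: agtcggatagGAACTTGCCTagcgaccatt
Ccng1: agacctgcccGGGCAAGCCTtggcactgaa
Sesn1: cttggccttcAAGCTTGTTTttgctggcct
Aen: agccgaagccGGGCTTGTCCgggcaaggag
Cdkn1a: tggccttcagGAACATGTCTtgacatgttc
The match began 186 bases before the start in Mdm2, 185 in Ccng1, 173 in Sesn1, 121 in Aen, 75 in Trp53 and 51 in Cdkn1a. Seen from the other start of Aen, the same site began 10 bases after it. In Ccng1 and Cdkn1a the match belonged to 2 adjoining copies of the motif with 1 mismatch in 20 bases, an arrangement found in 0.0883% of all windows and looked for after the exact matches had been seen. The windows of Mdm4 and Phlda3 held no exact match. A match is a stretch of letters, not a measured binding site, and sites outside these windows were not searched.

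Levels of different genes were compared after division by the length of their merged exons. In WT cells Trp53 averaged 78.0 CPM per kilobase, Sesn1 59.3, Ccng1 41.2, Mdm2 23.5, Trp53inp1 16.8, Mdm4 11.1 and Aen 8.17, while Phlda3 at 1.91 and Zmat3 at 0.251 were close to silent. In AG221 cells the order after Trp53, at 120 CPM per kilobase, was Ccng1 at 44.6, Mdm4 at 15.6, Aen at 15.3, Sesn1 at 12.3, Mdm2 at 11.3 and Trp53inp1 at 2.89. Mdm4, Aen, Sesn1 and Mdm2 lay too close to one another there to be ordered, given the spread of the 3 libraries. The plot of all 9 genes by library shows the levels per library.

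**Figure D1:**
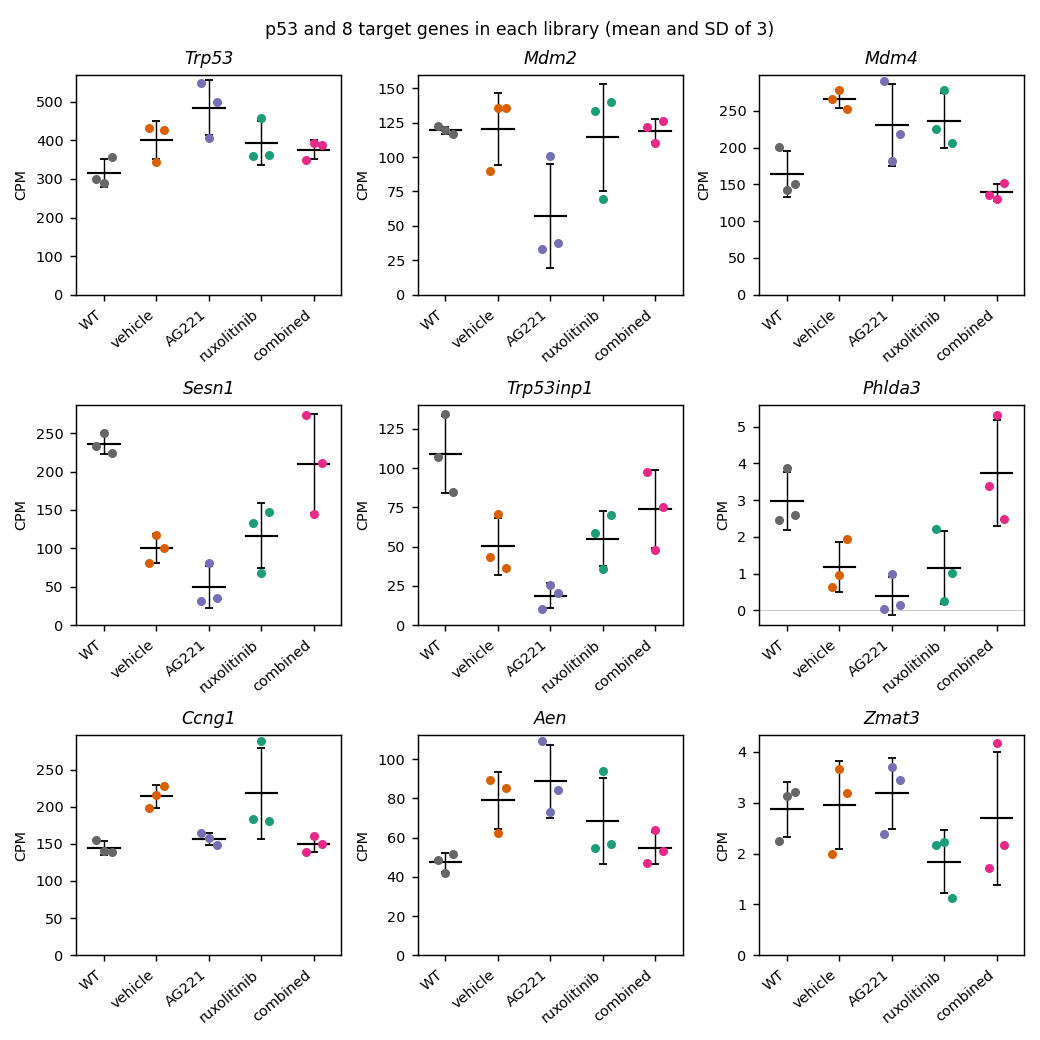
CPM of Trp53 and the 8 other genes (y axes, linear, from 0 or just below) in each of the 15 libraries, grouped on the x axis; points are libraries, horizontal lines group means and vertical bars the SD of 3. Sesn1 and Trp53inp1 were lowest in AG221 and high in WT and combined, and Mdm2 was low in 2 of 3 AG221 libraries. Ccng1 was highest in vehicle and ruxolitinib, and Mdm4 was higher in vehicle, AG221 and ruxolitinib than in combined.

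The gene for p53 itself was well expressed in every library. Trp53 stood at 300.3, 289 and 357 CPM in WT, at 431, 344 and 426 in vehicle, at 548, 407 and 498 in AG221, at 358, 459 and 361 in ruxolitinib, and at 348, 392 and 387 in combined. All 3 AG221 libraries lay above all 3 WT libraries, the ruxolitinib libraries lay above them by a narrow margin, and vehicle and combined overlapped with WT. The log2 fold change of AG221 against WT was 0.62 (SE 0.15, adjusted p = 0.0052 from the quasi-likelihood test of edgeR, adjusted by Benjamini-Hochberg over all tested genes, as is every adjusted p that follows unless another tool is named). Vehicle against WT gave 0.34 (SE 0.15, adjusted p = 0.091), which did not pass the threshold of 0.05.

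The first question was how untreated mutant cells differ from WT. Of the 9 genes, 5 were called in vehicle against WT, against 33.3% of all genes tested. Mdm4, Ccng1 and Aen were higher (15.4% of all genes were called higher), and Trp53inp1 and Sesn1 were lower (17.9% of all genes). The median log2 fold change over the 9 was 0.04, beside -0.09 over all genes. The called count fell to 0 without WT B30 (10.5% of all genes in that fit), to 1 without vehicle A4 (19.4%), to 2 without vehicle A1 (18.3%) and to 3 without WT B28 (22.9%). Upper quartile scaling left 2, Trp53inp1 and Sesn1.

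Of the inhibitors, Mdm4 blocks p53's activation domain without degrading it. It measured 200.1, 142 and 150.1 CPM in WT and 266, 278 and 253 in vehicle, with no overlap, a log2 fold change of 0.70 (SE 0.18, adjusted p = 0.0141). Mdm2, the ligase that sends p53 to the proteasome, was at 122, 119 and 117 CPM in WT and at 90.0, 135 and 136 in vehicle. Its vehicle libraries fell on both sides of the WT values, and no difference was detectable (adjusted p = 0.985).

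Among the targets, Sesn1 encodes sestrin 1, a stress-induced brake on the growth kinase mTORC1. It fell from 234, 251 and 224 CPM in WT to 80.5, 118 and 101 in vehicle, a log2 fold change of -1.24 (SE 0.36, adjusted p = 0.0207). Trp53inp1, whose protein supports p53-dependent death and autophagy, fell from 107, 134 and 84.8 CPM to 43.3, 70.7 and 36.6 (-1.11, SE 0.37, adjusted p = 0.0366). Every vehicle library lay under every WT library for both genes.

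Ccng1 and Aen went the other way. Cyclin G1, the product of Ccng1, ties p53 to the phosphatase PP2A and to Mdm2. Ccng1 rose from 155, 140.4 and 138 CPM in WT to 198, 216 and 228 in vehicle (0.57, SE 0.16, adjusted p = 0.0198). Aen, which encodes a nuclease that promotes apoptosis, rose from 48.5, 42.1 and 51.6 CPM to 89.3, 62.5 and 85.5 (0.74, SE 0.23, adjusted p = 0.0266). Both groups were separate for each gene.

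The remaining targets were scarce. Phlda3, a repressor of the kinase Akt, had 68, 115 and 77 counts in the WT libraries and 17, 30 and 49 in vehicle, and its difference did not pass (adjusted p = 0.186). Zmat3, an RNA-binding zinc finger protein, ran from 2.25 to 3.22 CPM in WT and from 1.99 to 3.67 in vehicle, and across all 15 libraries it stayed between 1.12 and 4.18 CPM. It was called in none of the 10 comparisons.

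Markers of other cells moved in the same comparison. Of 5 plasma cell markers 4 were called lower in vehicle, and their summed level was 589 to 1257 CPM in WT and 64.7 to 156 in vehicle; of 4 mast cell and basophil markers 3 were called higher, from 59.5 to 132 CPM in WT to 464 to 528 in vehicle. Of the 9 LSK markers 1 was called higher and 2 lower. Of 5 monocyte and dendritic cell markers 3 were higher, of 4 megakaryocyte markers 2 were higher, and of 5 B cell markers 2 were lower. For erythroid cells, neutrophils, and T and NK cells, 1 of 6 markers each was called higher. None of these markers was at 0 in every library of either group. Their part in the differences was not tested, and in bulk RNA fewer cells of a type and less RNA per cell cannot be told apart.

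The AG221 group departed furthest from WT. Here 7 of the 9 genes were called, against 50.7% of all genes: Trp53, Mdm4 and Aen higher (22.2% of all genes) and Mdm2, Trp53inp1, Phlda3 and Sesn1 lower (28.5% of all genes). The median over the 9 was 0.12 on the log2 scale, beside -0.25 over all genes. Leaving out AG221 A10 reduced the calls to 4, beside 35.3% of all genes in that fit.

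Sesn1 measured 31.8, 80.7 and 34.9 CPM in AG221, each below the lowest WT library, and its log2 fold change against WT was -2.27 (SE 0.37, adjusted p = 0.000599). Trp53inp1 measured 10.002, 25.8 and 20.3 CPM, also below every WT and every vehicle library (-2.54, SE 0.39, adjusted p = 0.000443). Both genes thus stood at less in AG221 than in vehicle, though the step from vehicle was not called.

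Mdm2 split the AG221 group. It was at 33.3 and 37.5 CPM in A8 and A10 and at 101 in A9, and all 3 were below the WT libraries (-1.06, SE 0.36, adjusted p = 0.0271). Phlda3 had 1 and 4 counts in A8 and A10 and 21 in A9, and few counts therefore carry its log2 fold change of -2.96 (SE 0.85, adjusted p = 0.0121). The same 2 libraries were lowest for Sesn1 and Trp53inp1 and highest for Trp53.

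A8 and A10 stood apart in composition as well. The correlation across 17751 genes between a gene's GC content and its deviation in the library was -0.274 in A8 and -0.213 in A10, and between -0.129 and 0.202 in the other 13 libraries. Over the 15 libraries this correlation moved with Mdm2 (Pearson's r = 0.86, Spearman's rho 0.67, and r = 0.94 for deviations from the group means). It also moved with Phlda3 (r = 0.80, deviations 0.90), Sesn1 (r = 0.69, deviations 0.81) and Trp53inp1 (r = 0.59, deviations 0.55), and against Aen (r = -0.61, deviations -0.70), Trp53 (r = -0.58, deviations -0.72) and Mdm4 (r = -0.52, deviations -0.70). The 2 libraries farthest from the gene's own median were then left out. They were A8 and A10 for Mdm2 (r = 0.63), Phlda3 (0.53), Sesn1 (0.28) and Trp53inp1 (0.037). The relation with Trp53inp1 thus rests on A8 and A10. They were A8 and WT B30 for Trp53 (r = -0.58), A8 and ruxolitinib A16 for Aen (-0.34), and combined B24 and B25 for Mdm4 (-0.37). For Trp53, Aen and Mdm4 A10 stayed in, so r without both A8 and A10 is not given for them. With offsets for GC content in the fit, AG221 against WT gave 8 calls, Ccng1 being the addition, with Mdm2 at -0.87 (adjusted p = 0.0376; over all alternatives its adjusted p ran from 0.000244 to 0.0994). Of 6 neutrophil markers 5 were called higher, and their summed level was 4228 to 5201 CPM in AG221 and 719 to 897 in WT. Elane made up most of that sum, at 3680.5 to 4821.5 CPM in AG221 and 650 to 780 in WT. S100a8 was at 148 to 167 and 33.6 to 55.0 CPM, and Ly6g at 0.422 to 2.26 and 0 to 0.101. None was at 0 in every library of a group. Of the 9 LSK markers 6 were called lower, as were all 5 B cell and all 5 plasma cell markers, and 4 of 6 erythroid, 3 of 4 mast cell and basophil and 3 of 5 monocyte and dendritic cell markers were called higher. Of 4 megakaryocyte markers 1 was higher, and of 6 T and NK cell markers 1 was higher and 1 lower. The summed B cell level was 2.51 to 8.26 CPM in AG221 and 22.6 to 40.5 in WT, and that of plasma cells 34.4 to 113 and 589 to 1257. The part of these cells in the gene differences was not tested.

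Mdm4 and Aen in AG221 resembled vehicle. Mdm4 was at 291, 181 and 219 CPM, overlapping with WT (0.49, SE 0.18, adjusted p = 0.0378). Aen was at 109, 72.8 and 84.3 CPM, above every WT library (0.90, SE 0.23, adjusted p = 0.00631). Ccng1, at 165, 157 and 148 CPM, did not pass (0.12, SE 0.16, adjusted p = 0.563).

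Under ruxolitinib 3 of the 9 genes were called against WT, beside 32.3% of all genes: Mdm4 and Ccng1 higher (16.1% of all genes) and Sesn1 lower (16.2% of all genes). The median over the 9 was -0.06, beside -0.14 over all genes. Mdm4 measured 225, 278 and 206 CPM and Ccng1 184, 289 and 181, each above all WT libraries, with log2 fold changes of 0.53 (SE 0.18, adjusted p = 0.0417) and 0.59 (SE 0.16, adjusted p = 0.017). Sesn1 measured 134, 67.8 and 147 CPM, all under WT (-1.02, SE 0.36, adjusted p = 0.0437). Library A16 was lowest for Sesn1, Mdm2, Trp53inp1 and Phlda3 and highest for Trp53, Mdm4, Ccng1 and Aen among the 3, and its GC correlation was -0.129 against 0.165 in A14 and 0.143 in A17. None of the 9 was called without A16 (16.2% of all genes in that fit) or without WT B30 (10.6%). With A14 (24.9%) or WT B31 (27.1%) left out, 1 was called. Of the markers of other cells 4 of 6 erythroid, 3 of 4 mast cell and basophil and 3 of 5 monocyte and dendritic cell genes were called higher than in WT. So were 2 of 4 megakaryocyte, 2 of 6 neutrophil and 1 of 6 T and NK cell genes. Called lower were 3 of 9 LSK genes and 4 of 5 plasma cell genes, with a summed plasma cell level of 78.2 to 216 CPM against 589 to 1257. Their part was not tested.

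Neither drug alone moved a gene of the circuit past the threshold relative to vehicle. For AG221 the count was 0 of 9, beside 0.987% of all genes, with 4 genes at an unadjusted p under 0.05 and 3 called by DESeq2. For ruxolitinib it was 0 of 9, beside 0.0168% of all genes, with 0 at an unadjusted p under 0.05 and 0 by DESeq2. The medians over the 9 were -0.45 and -0.03 on the log2 scale, beside -0.01 and 0.01 over all genes.

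The AG221 values nonetheless lay well below vehicle for some targets. The log2 fold change was -1.42 for Trp53inp1 (SE 0.38, adjusted p = 0.0647), -1.07 for Mdm2 (SE 0.36, adjusted p = 0.107) and -1.02 for Sesn1 (SE 0.36, adjusted p = 0.114). Ccng1, with an unadjusted p under 0.05 as well, was at -0.45 (SE 0.16, adjusted p = 0.119). Trp53inp1 and Ccng1 had no overlap between the groups, while AG221 A9 overlapped vehicle for Mdm2 and, just above vehicle A1, for Sesn1. Without A9, which leaves the 2 libraries whose GC correlation stands apart, the fit called 4 genes, Mdm2, Trp53inp1, Phlda3 and Sesn1, all lower, beside 24.4% of all genes. Without A8 or without A10 it called 0 of all genes tested, with 2642 and 2995 at an unadjusted p under 0.05, and Mdm2 was at -0.78 and -0.82. AG221 and vehicle share the letter A, so that this comparison lies within a letter.

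**Figure D2:**
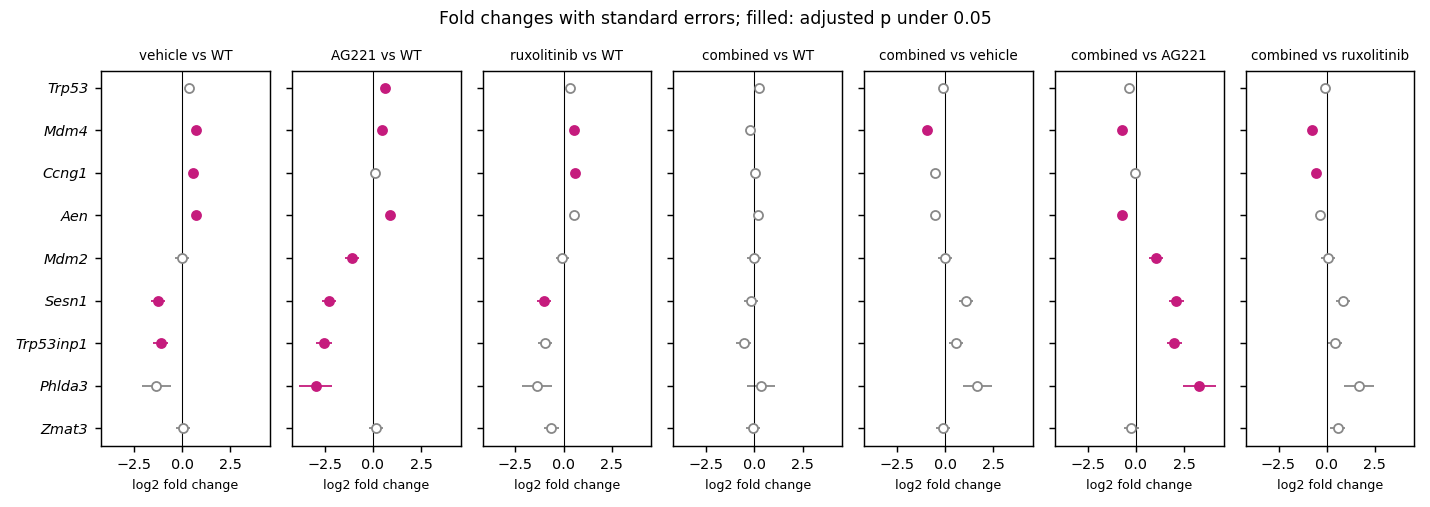
Log2 fold changes (x axes) of the 9 genes (rows) in 7 comparisons (panels), with bars of 1 SE; filled points have an adjusted p under 0.05. Calls against WT number 5 for vehicle, 7 for AG221, 3 for ruxolitinib and 0 for combined, and 6 genes differ between combined and AG221.

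In cells from mice given both drugs no difference from WT was detectable. None of the 9 genes was called in combined against WT, beside 3.25% of all genes, none had an unadjusted p under 0.05, and DESeq2 called none. The log2 fold changes ran from -0.56 to 0.33 with a median close to 0, beside 0.04 over all genes. Their standard errors, 0.15 for Trp53 to 0.74 for Phlda3, do not exclude differences. The value for Trp53inp1, -0.56 (SE 0.37), does not exclude a change as large as in vehicle against WT (-1.11). Combined and WT share the letter B and not the sex of the cells.

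Mdm4 carried the clearest difference between combined and vehicle. It measured 136, 130.4 and 152 CPM in combined against 266, 278 and 253 in vehicle, with no overlap, a log2 fold change of -0.93 (SE 0.18, adjusted p = 0.00569). It was the 1 gene of 9 called there, beside 12.5% of all genes (8.28% higher and 4.21% lower), and the call held without each library in turn. The median over the 9 was -0.09, beside 0.04 over all genes. Combined and vehicle differ in the letter as well as in treatment.

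Sesn1 at 274, 145 and 210.5 CPM and Ccng1 at 139, 161 and 149 CPM in combined did not overlap with vehicle either, and missed the threshold (1.07, SE 0.36, adjusted p = 0.0689, and -0.51, SE 0.16, adjusted p = 0.0537). Phlda3, at 3.39, 5.32 and 2.498 CPM in combined and 0.639, 0.957 and 1.93 in vehicle, did not overlap and did not pass (1.67, SE 0.77, adjusted p = 0.185). Trp53inp1, at 97.8, 48.1 and 75.3 CPM, overlapped with vehicle. Between 2 and 3 genes were called by DESeq2, by upper quartile scaling, under either other filter on low counts, or in a fit to the groups compared.

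Combined and AG221 differed in 6 of the 9 genes, beside 33.2% of all genes. Mdm2, Trp53inp1, Phlda3 and Sesn1 were higher in combined (18.9% of all genes), and Mdm4 and Aen were lower (14.3% of all genes). Sesn1 differed by 2.10 on the log2 scale (SE 0.37, adjusted p = 0.00281), Trp53inp1 by 1.98 (SE 0.39, adjusted p = 0.00368), Phlda3 by 3.29 (SE 0.86, adjusted p = 0.0118) and Mdm2 by 1.06 (SE 0.36, adjusted p = 0.0392). Mdm2 measured 121, 109.9 and 126 CPM in combined, above AG221 A9 as well. Mdm4 was -0.72 (SE 0.18, adjusted p = 0.0102) and Aen -0.70 (SE 0.23, adjusted p = 0.0316). The median over the 9 was -0.06, beside 0.11 over all genes. Of the 9, 3 were called without A8 (15.7% of all genes in that fit) and 3 without A10 (16.9%). Neutrophil markers moved here too, 4 of 6 called lower, with a summed level of 940.2 to 1282 CPM in combined against 4228 to 5201 in AG221. Elane made up most of that sum, at 907 to 1142 CPM against 3680.5 to 4821.5. The part of these markers was not tested.

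Against ruxolitinib, combined had 2 of 9 genes called, Mdm4 and Ccng1, both lower, beside 12.4% of all genes (8.5% higher and 3.94% lower). The log2 fold changes were -0.76 for Mdm4 (SE 0.18, adjusted p = 0.015) and -0.54 for Ccng1 (SE 0.16, adjusted p = 0.0431), and the median over the 9 was 0.06, beside 0.01 over all genes. The calls were lost without A16 (6.88% of all genes in that fit), B24 (5.99%) or B25 (6.55%), and 1 remained without B26 (9.92%).

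Whether the combination did more than the sum of both drugs was tested as the departure of combined from the added log2 changes of AG221 and ruxolitinib. It was called for Sesn1 (1.87, SE 0.51, adjusted p = 0.0436) and Trp53inp1 (1.85, SE 0.53, adjusted p = 0.0487), 2 of 9 genes beside 8.42% of all genes. The AG221 and ruxolitinib changes of Sesn1 added to less than 0, and combined was above vehicle. Both calls were narrow. They were lost on leaving out A3, A4, A8, A10, A14, A16, A17, B24, B25 or B26, 5 genes were called without A9, beside 31.8% of all genes in that fit, and none in the fit to the 4 groups concerned. Vehicle serves as the baseline of each term in it. Combined is the only group of the 4 with the letter B, so the departure and the letter cannot be told apart.

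Trp53 and its targets did not rise and fall as one group. Over the 15 libraries, on the log2 CPM scale, Trp53 ran against Trp53inp1 (Pearson's r = -0.94, Spearman's rho -0.93), Sesn1 (r = -0.90, rho -0.88) and Mdm2 (r = -0.80, rho -0.60), and with Aen (r = 0.92, rho 0.91). Without the 2 libraries farthest from the median of Trp53, AG221 A8 and WT B30, these were -0.89, -0.85, -0.76 and 0.87. AG221 A10 stayed in. Deviations from the group means gave -0.89, -0.85, -0.78 and 0.92. These deviations also moved with the GC correlation of the library, as given above for each gene, and the part of library composition in the relations was not tested. The coefficients are descriptions. Sesn1 and Trp53inp1 ran together (r = 0.95), while Zmat3 had an r between -0.21 and 0.13 with each of the others.

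**Figure D3:**
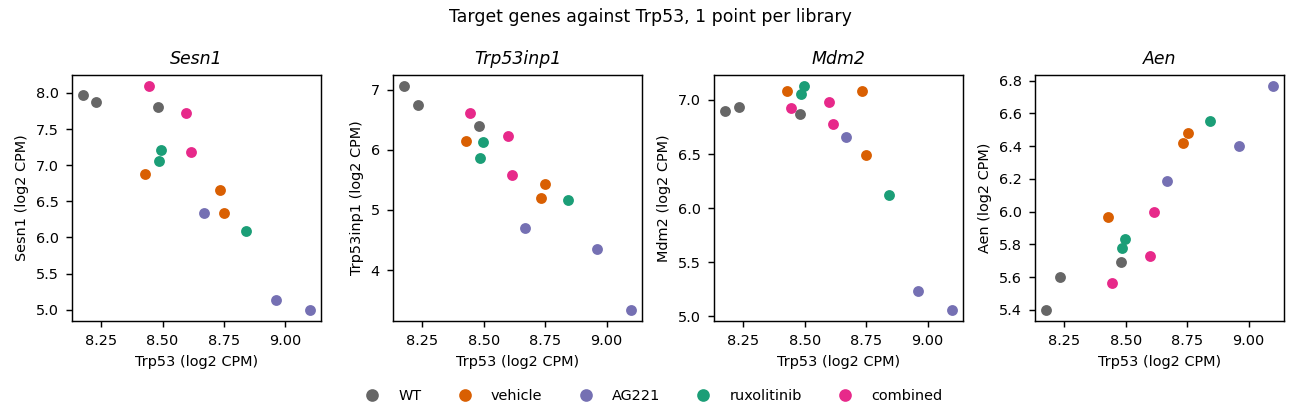
Log2 CPM of Sesn1, Trp53inp1, Mdm2 and Aen (y axes) against that of Trp53 (x axes), 1 point per library, coloured by group. AG221 A8 and A10 sit at the right and AG221 A9 among the other groups, except for Trp53inp1, where A9 lies below them. Sesn1, Trp53inp1 and Mdm2 fall while Aen climbs with Trp53.

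Among tested genes outside the 9, those whose log2 CPM followed Trp53 most closely over the 15 libraries were Psmg2 (r = 0.985), Prmt5 (r = 0.983) and Eef1e1 (r = 0.982). For Mdm2 they were Ivns1abp (r = 0.993), Dnajc5 (r = 0.992) and Crtc2 (r = 0.989). For Ccng1 they were Dusp11 (r = 0.940), Ipo8 (r = 0.936) and Ppp4r3b (r = 0.932).

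A list of 46 further p53 target genes was described in the same way, 45 of them tested. In vehicle against WT 15 were called higher and 5 lower, 20 in all or 44.4% of the list, beside 33.3% of all genes (15.4% higher and 17.9% lower), and its median was 0.47 on the log2 scale, beside -0.09 over all genes. Those higher by the smallest p were Btg2, Pmaip1, Cdkn1a, Dram1, Gtse1 and Tigar, and the 5 lower were Fbxw7, Trp53i11, Ppm1d, Tob1 and Ei24. The number called was 5 without WT B30 (10.5% of all genes in that fit) and 9 without vehicle A1 (18.3%). It was 12 without vehicle A4 (19.4%) and 13 without WT B28 (22.9%).

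Cdkn1a encodes p21, the cyclin-dependent kinase inhibitor through which p53 arrests the cycle. It measured 13.3, 10.5 and 13.6 CPM in WT and 118, 104 and 77.9 in vehicle, 8.01-fold higher (SE 0.29 on the log2 scale, adjusted p = 4.38e-05). AG221 had 60.5, 67.5 and 66.7 CPM, ruxolitinib 77.4, 40.7 and 74.6, and combined 25.5, 14.03 and 26.2. Every combined library was above every WT library and below every other one, and combined against vehicle gave -2.19 (SE 0.28, adjusted p = 0.000811). The high groups are those with the letter A, for Pmaip1 and Btg2 below as well. The letter cannot be told apart from genotype or treatment here. An unnamed transcript on the other strand overlaps 7.68% of its exon bases, and whether reads were counted by strand is not stated.

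Pmaip1, which encodes the death-promoting Noxa, rose from 4.97, 5.26 and 3.55 CPM in WT to 137, 125 and 152 in vehicle (4.91, SE 0.43, adjusted p = 1.88e-05) and stood at 5.64, 13.0 and 14.2 in combined. Btg2, an antiproliferative gene, rose from 61.4, 79.4 and 62.0 CPM to 715, 1197 and 570.4 (3.61, SE 0.31, adjusted p = 1.7e-05) and stood at 99.5, 48.0 and 61.1 in combined. Dram1, a gene of autophagy, and Tigar, which lowers glycolytic flux, had log2 fold changes of 1.43 (SE 0.23, adjusted p = 0.0017) and 1.18 (SE 0.28, adjusted p = 0.0107). By contrast Bax and Bbc3, which encode other death effectors of p53, did not pass, at 0.48 (SE 0.20, adjusted p = 0.0858) and -0.24 (SE 0.47, adjusted p = 0.714).

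Ppm1d, whose phosphatase Wip1 switches p53 signalling off, was low in vehicle and in both single-drug groups. Its means were 4.62 CPM in vehicle, 6.00 in AG221 and 5.10 in ruxolitinib, beside 11.1 in WT, and AG221 A9 at 7.51 overlapped with WT. It measured 9.69, 16.3 and 7.31 CPM in WT, 3.68, 4.69 and 5.49 in vehicle and 34.6, 28.9 and 10.3 in combined. The log2 fold change was -1.26 for vehicle against WT (SE 0.41, adjusted p = 0.0327) and 2.41 for combined against vehicle (SE 0.43, adjusted p = 0.00374). Fbxw7, a substrate receptor that sends Myc and cyclin E for degradation, had the same order, with means of 17.1, 9.44 and 20.6 CPM. Ei24 did too, with 49.9, 20.8 and 62.4. In AG221 and ruxolitinib the means were 11.6 and 8.06 CPM for Fbxw7 and 13.5 and 22.6 for Ei24.

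**Figure D4:**
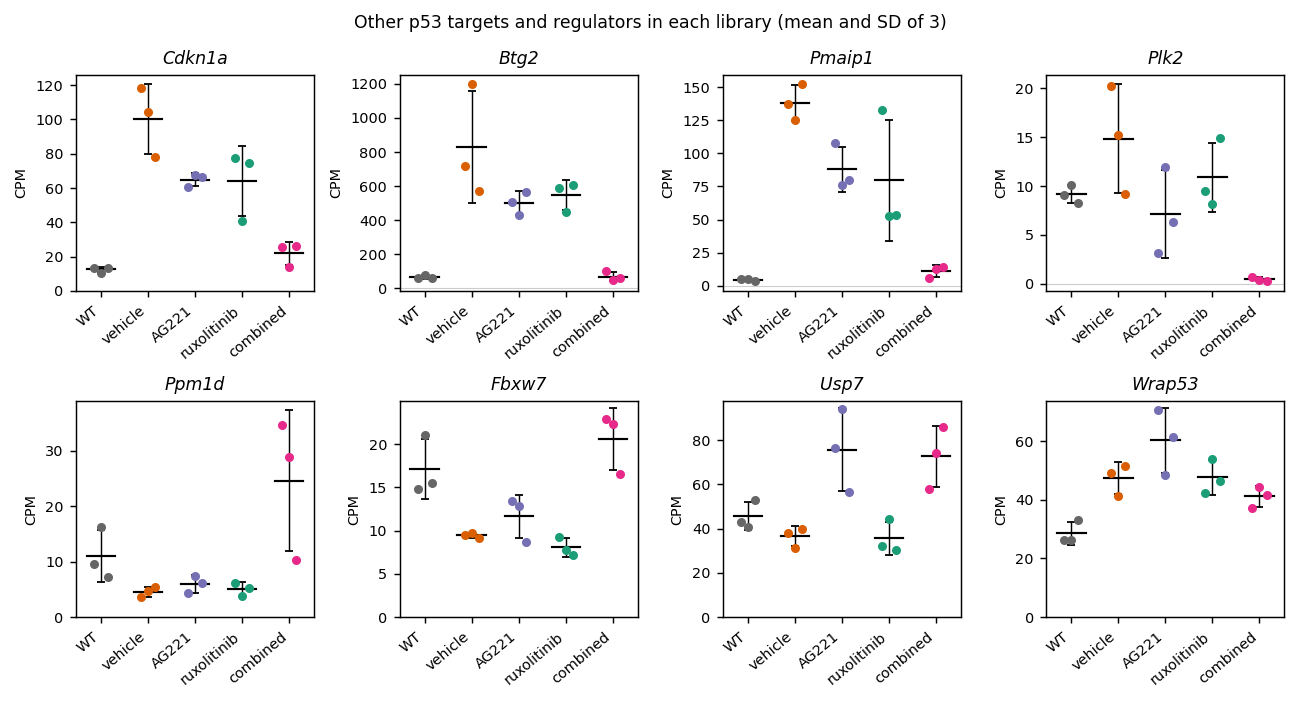
CPM (y axes, linear) of 6 further p53 targets (Cdkn1a, Btg2, Pmaip1, Plk2, Ppm1d, Fbxw7) and 2 regulators (Usp7, Wrap53) in each library, with the group mean and the SD of 3. Cdkn1a, Btg2 and Pmaip1 were high in vehicle and both single-drug groups (replicate names in A) and low in WT and combined (names in B). Ppm1d and Fbxw7 were low in vehicle and both single-drug groups.

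Combined against vehicle called 10 of the 45 (22.2%), beside 12.5% of all genes (8.28% higher and 4.21% lower), with a median of -0.15 beside 0.04 over all genes. Ppm1d, Fbxw7 and Ei24 were higher, and Btg2, Plk2, Pmaip1, Cdkn1a, Dram1, Tigar and Gdf15 were lower. Plk2, a kinase of stressed and cycling cells, had 0.731, 0.415 and 0.324 CPM in combined against 20.2, 15.2 and 9.16 in vehicle and 9.07, 10.1 and 8.28 in WT. It was the 1 gene of the list called in combined against WT (-4.23, SE 0.52, adjusted p = 0.000985). Against vehicle, AG221 called 1 (Ercc5, -0.90, SE 0.18, adjusted p = 0.0458) and ruxolitinib 0, with 14 and 3 at an unadjusted p under 0.05. DESeq2 called 6 and 0, and the edgeR count for AG221 was 17 without A9, where 24.4% of all genes were called, and 0 without any other of its 6 libraries. Leaving out B24 (5.52% of all genes in that fit) or B25 (6.12%) left 6 calls for combined against vehicle.

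Genes of the immediate early response, which are induced within minutes by signalling or by handling of cells, moved as Cdkn1a, Pmaip1 and Btg2 did. Ppm1d, Fbxw7 and Ei24 moved the other way. Of 17, 14 were called higher in vehicle against WT (15.4% of all genes) and 12 lower in combined against vehicle (4.21% of all genes), and Btg2 belongs to both lists. Their summed level was 884 to 1211 CPM in WT, 7638 to 16295 in vehicle, 4663 to 6209 in AG221, 4919 to 10098 in ruxolitinib and 815 to 1430 in combined. In WT and in combined, 1 of the 17 had 3 or fewer counts in every library. What part they have in the target differences was not tested.

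Of 36 regulators of p53, 34 were tested, and 15 (44.1%) were called in vehicle against WT, 10 higher and 5 lower, beside 33.3% of all genes (15.4% higher and 17.9% lower), with a list median of 0.17 beside -0.09 over all genes. Trp63, the gene of the related factor p63, was among those lower, at 0.508, 2.46 and 0.57 CPM in WT and 0.0376, 0 and 0 in vehicle. It passed the filter on low counts only through the WT libraries, which favours a lower call in vehicle. Its call is counted in the 15 and is not read as a result. All its vehicle libraries were under the level of 3 counts, so no fold is given. Wrap53, the neighbour of Trp53 on the other strand whose product guides telomerase RNA, rose from 26.2, 26.3 and 33.1 CPM to 49.0, 41.1 and 51.6 (0.73, SE 0.17, adjusted p = 0.01), and no annotated exon of it overlaps Trp53. Npm1, a nucleolar chaperone, was higher (0.76, SE 0.21, adjusted p = 0.0171), though reads of it may be shared with processed copies elsewhere in the genome. The checkpoint kinases Atm and Chek2 did not pass (0.32, SE 0.18, adjusted p = 0.194, and 0.36, SE 0.16, adjusted p = 0.095). The count was 1 without WT B30 (10.5% of all genes in that fit), 8 without vehicle A1 (18.3%) and 9 without WT B28 (22.9%).

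AG221 against vehicle called 4 regulators (11.8%), beside 0.987% of all genes. Usp7, the deubiquitinase that stabilises both Mdm2 and p53, rose from 38.2, 31.4 and 40.1 CPM to 76.4, 94.0 and 56.4 (1.05, SE 0.22, adjusted p = 0.0458). Rpl11, a ribosomal protein that binds Mdm2, was higher (0.60, SE 0.13, adjusted p = 0.0458), and the kinase Atr (-0.66, SE 0.12, adjusted p = 0.0458) and the nuclear body protein Pml (-1.04, SE 0.22, adjusted p = 0.0458) were lower. All 4 calls sat close to the threshold, 0 were left without A8, A10 or any vehicle library, and 12 were made without A9, where 24.4% of all genes were called. Combined against vehicle called 8 (23.5%), beside 12.5% of all genes, with a list median of -0.09 beside 0.04: Usp7 was higher again (0.99, SE 0.22, adjusted p = 0.0101), as were Trim24, Ppp1r13b and Otud5, while Atr, Atm, Trp53bp1 and Prkdc were lower. Ruxolitinib against vehicle and combined against WT called 0 with edgeR, with 1 and 13 at an unadjusted p under 0.05, and DESeq2 called 0 and 4.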

How the data were processed

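Counts per gene, which the authors made with STAR 2.5.1a on mm10 (submitters' processing notes), counting with its quantMode option on the Ensembl gene model, and deposited for all 15 libraries, were used as deposited. The strand setting and the Ensembl release are not given in the sources used here. RNA had been amplified by SMARTer. The deposited normalised signal equalled these counts divided by 1 factor per library (the notes name DESeq2 1.6.3) and served only for that check. Symbols, positions and exon lengths came from GENCODE M21 (GRCm38), which matched 44585 of 45232 gene IDs, and promoter windows from RefSeq.

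Genes were filtered with filterByExpr by group, and 17834 were tested by edgeR 4.0.16 quasi-likelihood (TMM scaling, 1 fit to all 5 groups, R 4.3.3), with Benjamini-Hochberg adjustment over all tested genes and a threshold of 0.05. Comparisons with the same control share its libraries. CPM were scaled by TMM. Totals were 18836625 to 32174287 counts, at which 3 counts are 0.0932 to 0.159 CPM, counting error only. Replicates differed by more than sampling noise, with a chi-square of 13.9 to 160.0 per degree of freedom. The fit was tested on simulated data with known changes.

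The genes, lists and tests were chosen with earlier results of these data known. Named from the lists were Cdkn1a, Bax, Bbc3, Pmaip1, Ppm1d, Atm, Chek2, Usp7 and Wrap53, and at most 6 genes of smallest p per direction among those called in vehicle against WT or in a drug against vehicle. Alternatives were RLE and upper quartile scaling, DESeq2 1.42.0, 2 other filters (at least 1 count; at least 10 counts in every library), GC content offsets (lowess, span 0.3), a fit to the groups compared, and leaving out each library. No paired analysis was possible because each library has a replicate name of its own.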

Additional observations from a re-analysis of the deposited data

Results flagged for a closer look

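Combined treatment departed from the sum of both single-drug changes for Trp53inp1 by 1.85 on the log2 scale (SE 0.53, adjusted p = 0.0487) and for Sesn1 by 1.87 (SE 0.51, adjusted p = 0.0436), both by edgeR. The test was of the interaction itself, but combined is the only group of the 4 with replicate names in B, so the departure and the letter cannot be told apart. Leaving out a library ended both calls for 10 of the 12 libraries, and so did a fit to these 4 groups alone. Over the fits that left out 1 library the values ran from 1.50 to 2.15 for Trp53inp1, with adjusted p from 0.00979 to 0.124, and from 1.55 to 2.44 for Sesn1, with adjusted p from 0.00209 to 0.113. What gives rise to them was not tested.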

How the results depend on the processing

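Of 26 member fold changes that were called, none changed sign under any alternative, and 7 kept their call under all of them: Trp53, Aen, Sesn1 and Trp53inp1 in AG221 against WT, Sesn1 and Trp53inp1 in combined against AG221, and Mdm4 in combined against vehicle. The other 19 lost it in at least 1 fit without a library, and 12 also under another setting. The cause was not tested.

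Leaving out 1 library gave 0 to 6 called members for vehicle against WT, 4 to 7 for AG221 against WT, 0 to 2 for ruxolitinib against WT, 0 to 4 for AG221 against vehicle, 3 to 7 for combined against AG221, 0 to 2 for combined against ruxolitinib and 0 to 5 for the departure from the sum. For the further targets it gave 5 to 16 in vehicle against WT, 0 to 17 in AG221 against vehicle and 6 to 9 in combined against vehicle. For the regulators it gave 1 to 17, 0 to 12 and 6 to 9. The share of all genes called in the fits of these 3 comparisons ran from 10.5% to 30.9%, from 0 to 24.4% and from 5.26% to 10.3%.

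DESeq2 called 3 members for AG221 against vehicle and 3 for combined against vehicle, and for AG221 against vehicle 6 further targets and 8 regulators. Upper quartile scaling called 2 members for vehicle against WT and 2 for combined against vehicle, 7 regulators for vehicle against WT and 3 further targets for AG221 against vehicle. With every gene of at least 1 count the members called were 1 for AG221 against vehicle, 2 for combined against vehicle and 1 for combined against ruxolitinib, and AG221 against vehicle had 0 further targets and 2 regulators. With at least 10 counts in every library, which drops Phlda3, they were 1 for AG221 against vehicle and 2 for combined against vehicle, with 3 further targets and 7 regulators for AG221 against vehicle. In fits to the groups compared they were 3 for combined against vehicle, 1 for combined against ruxolitinib and 0 for the departure, with 0 further targets and 0 regulators for AG221 against vehicle.

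Upper quartile scaling moved the median log2 fold change of all genes from 0.11 to -0.18 for combined against AG221. The share of calls that were higher was 46.3% in vehicle against WT (26.7% with upper quartile scaling, 59.9% with GC offsets), 43.8% in AG221 against WT (57.0% with GC offsets), 49.8% in ruxolitinib against WT (34.0% and 61.8%) and 57.0% in combined against AG221 (38.0% and 43.9%). Low counts limit Phlda3 and Zmat3, which had 1 to 154 and 30 to 121 counts per library.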
